A study of Mus musculus with 4 samples.

Results

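The genes described here are 45 transcription regulators of the liver: liver-enriched transcription factors, nuclear receptors and the coactivators that receptors recruit. They were matched as a list of gene symbols to the deposited table of the liver RNA-Seq experiment, in which 35 of the 45 are among 7000 genes listed. The libraries were made from liver RNA of male FVB/N wild-type mice. From weaning, 2 mice (mice 1 and 2) were given the selenium-deficient torula yeast diet with 0 ppm added Se (0 Se), and 2 mice (mice 4 and 5) the same diet with 0.1 ppm Se added as sodium selenite (0.1 Se), each for 6 weeks. The study asked how dietary Se changes gene expression in the liver. For each gene, the values used here are the length of the RefSeq mRNA and 1 mean level, in CPM (reads of a gene scaled to the same total in every library), over all 4 libraries of both diets. The table runs in the order of the authors' test of the diets and stops at 7000 genes, so that a gene that is not listed is not shown to be absent from liver. Values of single mice were not analysed here, so no level has an error, the depth of the libraries is unknown, and the diets are not compared. Whether 2 genes that are close in level differ by more than the spread between mice was not tested.

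Nuclear receptors are transcription factors that many small lipid-soluble molecules switch on, among them bile acids, oxysterols, fatty acids, retinoids, thyroid hormone and foreign compounds. Many of them bind DNA as a pair with a retinoid X receptor (RXR), and a bound ligand brings in coactivator proteins. In hepatocytes they work beside liver-enriched factors of the forkhead, C/EBP, ONECUT and GATA families, which keep the genes of the differentiated hepatocyte active. Liver is a mixed tissue, and in bulk RNA fewer cells of a type and less RNA per cell cannot be told apart.

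The DNA just upstream of the annotated start is shown first for the 3 listed genes that have a TATA box on the sense strand close to the start. The TATA box is the core promoter element that positions transcription initiation. Each line runs from 60 bases to 1 base before the start, 5′ to 3′ on the gene's strand, from RefSeq on GRCm38.p6, with the match to TATAAA in capitals. The stretches are chr7:35119233-35119292 for Cebpa, chr7:19023540-19023599 (minus strand) for Foxa3 and chr4:133553316-133553375 for Nr0b2.
Cebpa: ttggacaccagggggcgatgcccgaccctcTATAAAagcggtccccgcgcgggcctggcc
Foxa3: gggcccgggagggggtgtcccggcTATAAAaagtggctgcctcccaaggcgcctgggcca
Nr0b2: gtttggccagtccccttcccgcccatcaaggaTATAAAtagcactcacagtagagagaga
The motif begins 30, 36 and 28 bases before the start in Cebpa, Foxa3 and Nr0b2. These genes were 1st, 7th and 8th of the 35 in level per kilobase. Only 27 of the 35 had a promoter that could be searched. A match on the opposite strand was found in Nr5a2, Prox1 and Ncoa6, which were 11th, 12th and 28th. The genes shown were chosen after their matches had been seen, so nothing is read from these ranks.

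Because a long mRNA gives more fragments than a short one at the same number of molecules, genes are compared here in mean CPM per kilobase of mRNA. On this scale the 35 listed genes ran from 0.563 for Ppard to 100.6 for Cebpa, with a median of 5.65. All 7000 listed genes had a median of 6.19 and a range from 0.0764 to 15367. Of the 35 genes, 17 (48.6%) lay above that median, 11 were in the highest 25% of all listed genes and 7 in the lowest 25%. The group as a whole was thus neither high nor low among the listed genes. Of its summed level, 52.0% was in the 5 highest genes and 79.3% in the 10 highest. The matching share over all listed genes was not calculated, so such a concentration is not shown to be particular to the group.

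**Figure D1:**
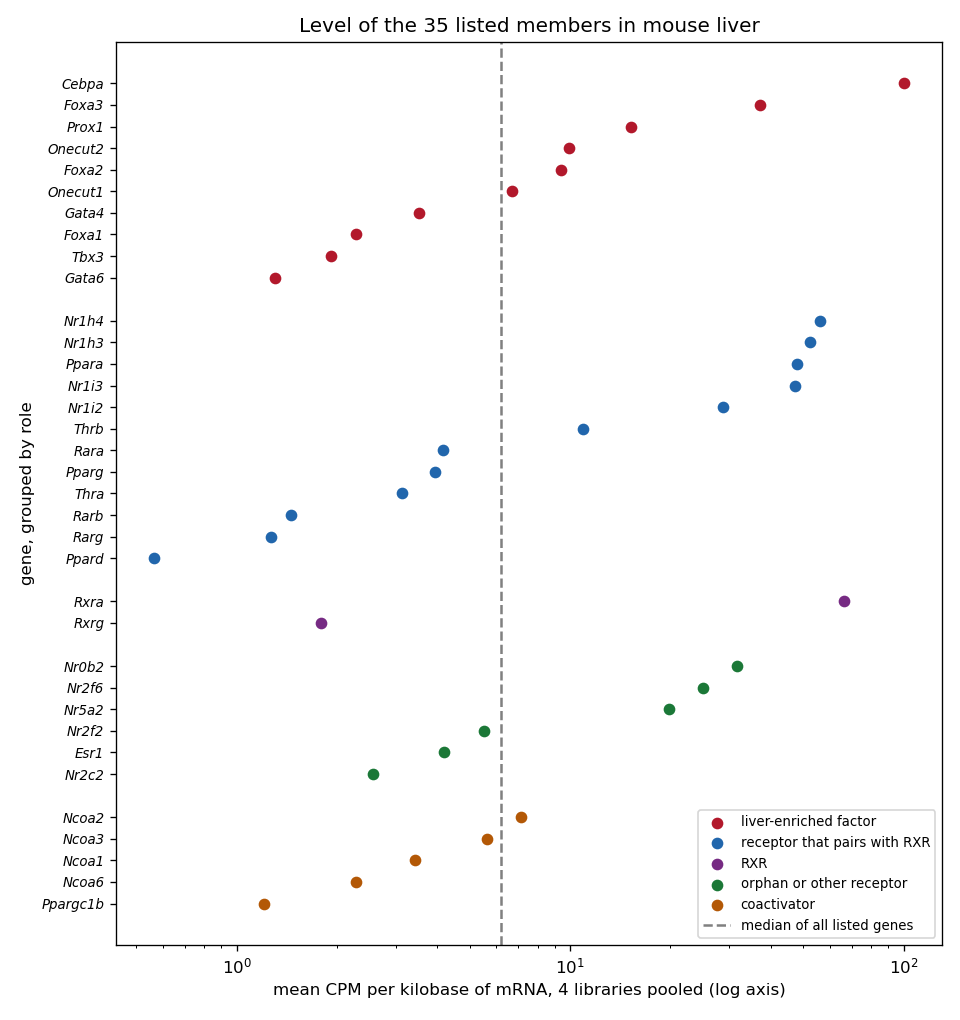
Mean level of each listed gene in CPM per kilobase of mRNA (log axis), 1 point per gene over the 4 pooled libraries, grouped and coloured by role, with the median of all 7000 listed genes (6.19) as a dashed line. Cebpa stands highest at 100.6 and Ppard lowest at 0.563, and genes of each role lie on both sides of the line.

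Of the 11 liver-enriched factors, 10 are listed and 6 of these lay above the median of all listed genes per kilobase. Cebpa, which encodes C/EBPα, a basic leucine zipper factor of hepatocyte metabolism, had a mean of 265.6 CPM, or 100.6 CPM per kilobase. Its level per kilobase was at the 93.5th percentile of all listed genes. The gene has a single exon and lies on chromosome 7 of NCBIM37 (the assembly of mm9) from 35904312 to 35906945. Prox1, a homeobox factor of liver and lymphatic development, had 62.9 CPM, or 15.2 per kilobase.

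The 3 forkhead genes of the FOXA family, whose proteins open chromatin for other liver factors, differed widely. Foxa3 had 75.9 CPM, Foxa2 20.002 CPM and Foxa1 7.28 CPM. Per kilobase these are 37.2, 9.40 and 2.28, so that Foxa3 was 3.96 times Foxa2, and Foxa2 was 4.12 times Foxa1. Foxa3 held 76.1% of the summed level of the family. Foxa3 lies on chromosome 7 from 19598631 to 19608887 (minus strand, 2 exons), Foxa2 on chromosome 2 from 147868613 to 147872705 (minus strand, 3 exons) and Foxa1 on chromosome 12 from 58641618 to 58647108 (minus strand, 2 exons).

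Both ONECUT genes, which encode cut-homeodomain factors of liver and bile duct development, lay above the median of all listed genes per kilobase. Onecut2 had 132.5 CPM against 12.2 CPM for Onecut1, a ratio of 10.9. The mRNA of Onecut2, at 13391 bases, is the longest of the 35, and that of Onecut1 has 1823 bases. Per kilobase the levels were 9.89 and 6.67, a ratio of 1.48. The pair thus lay much closer per kilobase than in CPM. The nearest annotated transcript of Onecut2 has 15906 bases, and the same CPM divided by that length is 8.33 per kilobase. Reads from bases beyond the listed mRNA are not in that CPM, so 8.33 is not a level of the longer transcript.

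The zinc finger factors of the GATA family and the T-box factor Tbx3 lay below the median of all listed genes. Gata4 had 11.9 CPM (3.51 per kilobase), Gata6 had 4.16 CPM (1.30 per kilobase) and Tbx3 had 9.77 CPM (1.92 per kilobase). Gata6 and Tbx3 were in the lowest 25% of listed genes. Hnf4a, a receptor-type factor counted here with the liver-enriched factors, is not listed.

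Rxra, a common partner of many of the receptors below, was the second of the 35 genes, with 348.4 CPM or 66.1 CPM per kilobase. It lies on chromosome 2 from 27531960 to 27618477 and has 10 exons. Rxrg had 3.81 CPM, or 1.79 per kilobase, and Rxra was 37.0 times as high. Rxrb is not listed, so its part in the RXR level was not analysed here.

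Of the 13 receptors grouped here as partners of RXR, 12 are listed. They fell on both sides of the median of all listed genes, 6 above and 6 below. This grouping was made after the levels had been seen, and it need not hold every receptor that can pair with RXR. Those above were Nr1h4, Nr1h3, Ppara, Nr1i3, Nr1i2 and Thrb, and those below were Rara, Rarb, Rarg, Pparg, Ppard and Thra. Nr1h4, the bile acid receptor FXR, had 123.3 CPM (56.3 per kilobase) and Nr1h3, the oxysterol receptor LXRα, had 102.7 CPM (52.5 per kilobase). These neighbours in the order differed by a factor of 1.07. Nr1h4 lies on chromosome 10 from 88916979 to 88996330 (minus strand, 10 exons), and Nr1h3 on chromosome 2 from 91024218 to 91042991 (minus strand, 10 exons). Nr1h2, which encodes LXRβ, is not listed.

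Nr1i3 (CAR) and Nr1i2 (PXR), the xenobiotic receptors that switch on drug-metabolising enzymes, were also in the highest 25%. Nr1i3 had 66.9 CPM and Nr1i2 had 72.8 CPM. Nr1i3 has a short mRNA of 1414 bases, against 2527 bases for Nr1i2, and its level per kilobase of 47.3 was 1.64 times the 28.8 of Nr1i2. The order of the pair therefore turned with the scale, Nr1i2 being the higher in CPM and Nr1i3 per kilobase. They lie on chromosome 1 from 173144101 to 173150832 and on chromosome 16 from 38248409 to 38294910, and each has 9 exons.

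The PPAR family, receptors for fatty acids and their derivatives, had the widest range of the 11 families with at least 2 listed genes. Ppara, which drives hepatic fatty acid oxidation, had 357.0 CPM, the highest of the 35, and 47.9 CPM per kilobase. Pparg, better known for its role in fat cells, had 7.33 CPM (3.95 per kilobase), and Ppard had 1.81 CPM (0.563 per kilobase). Ppara was 12.2 times Pparg and 85.2 times Ppard per kilobase. It held 91.4% of the summed level of the family. Ppard was at percentile 5.51 of listed genes. The nearest annotated transcript of Ppara has only 3413 of the 7445 bases listed, which would give 104.6 CPM per kilobase, and the family then spans still more.

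The receptors for thyroid hormone lay on either side of the median of all listed genes. Thrb, known as the main thyroid hormone receptor of liver, had 66.5 CPM (10.9 per kilobase) and Thra had 7.03 CPM (3.13 per kilobase). Thrb was thus 3.49 times Thra per kilobase and 9.46 times in CPM. Among the retinoic acid receptors, Rara had 14.02 CPM (4.14 per kilobase), Rarb 4.05 CPM (1.46 per kilobase) and Rarg 3.70 CPM (1.27 per kilobase). All 3 lay below the median of all listed genes on either scale, and the lower pair, Rarb and Rarg, differed by a factor of 1.15.

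**Figure D2:**
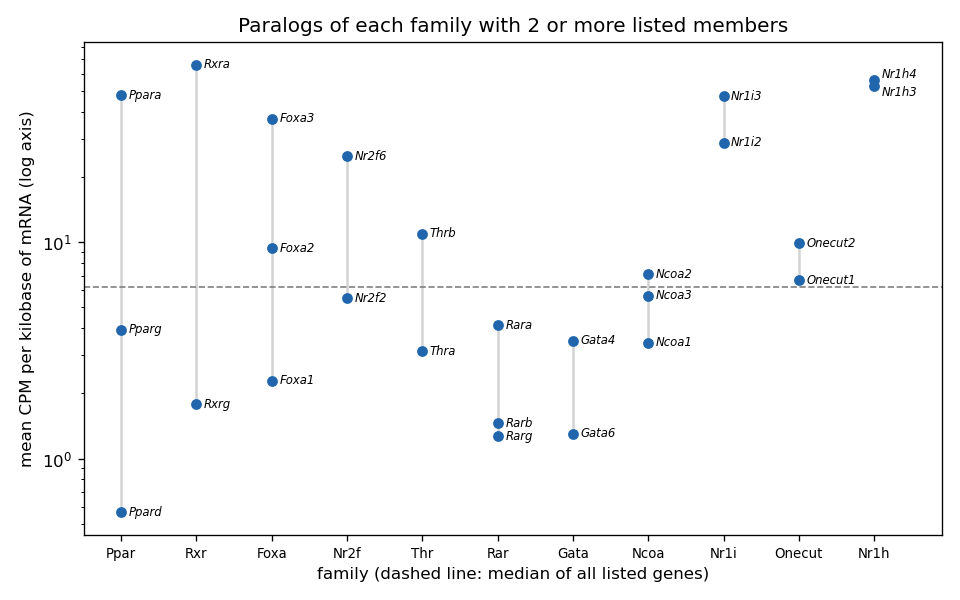
Mean CPM per kilobase of mRNA (log axis) of the listed genes in the 11 families with at least 2 listed genes, 1 point per gene and a grey line from the lowest to the highest, families ordered by that span. The span is 85.2-fold in the Ppar family, 37.0-fold in Rxr and 16.3-fold in Foxa, and 1.07-fold in Nr1h.

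Of the 13 orphan and other receptors, 6 are listed. Nr0b2, which encodes SHP, a receptor-like repressor without a DNA-binding domain, had 35.3 CPM. Its mRNA of 1118 bases is the shortest of the 35, and per kilobase its level of 31.6 was the highest of the 6. Nr2f6, an orphan receptor of the COUP-TF group, had 55.4 CPM (24.97 per kilobase). Nr5a2, which encodes LRH-1, a receptor of bile acid and cholesterol metabolism, had 73.8 CPM (19.8 per kilobase). These 3 genes were all in the highest 25% of listed genes per kilobase.

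Nr2f2 (COUP-TFII), Esr1 (oestrogen receptor α) and Nr2c2 (TR4) lay below the median of all listed genes per kilobase. They had 23.3, 18.0 and 19.5 CPM, or 5.52, 4.17 and 2.56 CPM per kilobase. Nr2f6 was 4.52 times its paralog Nr2f2 per kilobase. Nr2c1, Nr2f1, Nr3c2, Nr4a1, Rora, Esrra and Esrrg are not listed.

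All 5 coactivators are listed, and none was in the highest 25%. The p160 coactivators, which receptors recruit through short leucine-rich motifs, were close to each other. Ncoa2 had 58.4 CPM (7.11 per kilobase), Ncoa3 had 42.5 CPM (5.65 per kilobase) and Ncoa1 had 25.2 CPM (3.43 per kilobase), a span of 2.07-fold per kilobase. Ncoa2 alone of the 5 lay above the median of all listed genes. Ncoa6, a scaffold of a histone methyltransferase complex, had 15.6 CPM (2.27 per kilobase), and Ppargc1b, a relative of PGC-1α that supports mitochondrial genes, had 4.42 CPM (1.21 per kilobase). The median of the 5 was 3.43 CPM per kilobase, against 8.23 for the 20 listed nuclear receptors. In CPM, not divided by length, the medians were 25.2 and 29.3, so that the gap was smaller on that scale.

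**Figure D3:**
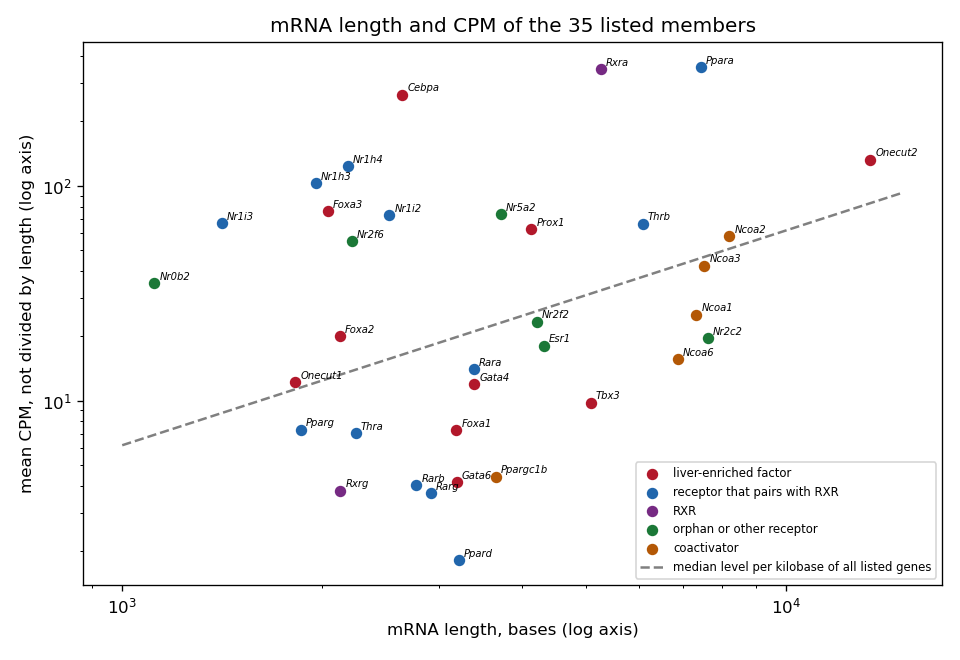
Mean CPM, not divided by length, against mRNA length in bases (both log axes) for the 35 listed genes, coloured by role, with a dashed line at the median level per kilobase of all listed genes. Ppara and Rxra reach 357.0 and 348.4 CPM with long mRNAs, and the coactivators Ncoa1, Ncoa2, Ncoa3 and Ncoa6 lie near or below the line at the long end.

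The listed mRNAs had a median length of 3218 bases, against 2959.5 bases for all listed genes. In GENCODE vM1 on NCBIM37, each of the 35 was matched by symbol to its coding transcript of nearest length, and for 33 this transcript lay within 10% of the listed length. In these 33 the coding sequence took a median of 52.9% and the 3′ untranslated region (UTR) 36.1% of the mRNA, against 54.6% and 35.7% over the 5997 listed genes with such a match. The 3′ UTR is the part that most often carries sites for microRNAs and RNA-binding proteins. It took 72.7% of the transcript of Thrb, 70.9% of Nr2c2 and 66.6% of Rxra. Onecut1 had the smallest share, 2.26%, followed by Ncoa6 with 7.41% and Nr1i3 with 8.98%. Within a pair of paralogs, Thrb has a 3′ UTR of 4420 bases where Thra has 583.

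**Figure D4:**
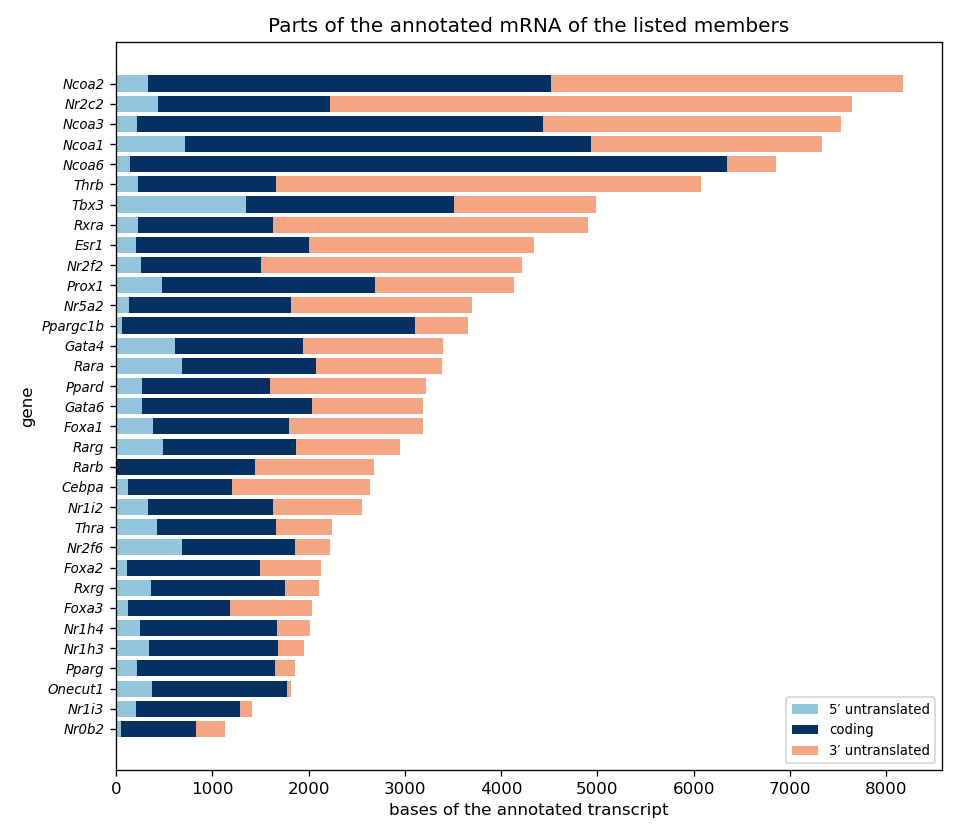
Length in bases of the 5′ untranslated, coding and 3′ untranslated part of the annotated transcript (stacked bars) for the 33 genes whose transcript is within 10% of the listed length. The 3′ untranslated part spans from 41 bases in Onecut1 to 5424 bases in Nr2c2.

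A RefSeq promoter of 300 bases, from 250 before to 50 after the start, was found for 27 of the 35 listed genes, and the most upstream start was taken where a gene had several, as 11 of the 27 do. Gata4, Gata6, Ncoa2, Ncoa3, Onecut2, Ppargc1b, Tbx3 and Thra had no entry. Which start is used in liver was not tested, and another start could give another CpG ratio. The 27 promoters differed in their content of CpG, the dinucleotide that is dense in the promoters of broadly active genes. The ratio of observed to expected CpG ran from 0.0987 in Ncoa6 to 1.08 in Rxra, with a median of 0.609, against 0.770 over 5226 listed genes with a promoter. It was under 0.5 in 10 of the 27 (37.0%), against 21.0% of the listed genes. The 10 are Ncoa6, Nr2f2, Nr1i2, Nr1i3, Nr5a2, Nr0b2, Nr1h3, Rarg, Esr1 and Nr1h4. All but Ncoa6 are nuclear receptors, as are most of the 27 genes. The 17 promoters at 0.5 or above include those of the receptors Nr2c2, Rxrg, Rara, Rarb, Ppara, Ppard, Pparg, Thrb, Nr2f6 and Rxra.

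The 10 CpG-poor promoters belong to genes with a median level of 24.3 CPM per kilobase, and the 17 others to genes with a median of 6.67. Over all listed genes these medians were 4.97 and 6.65. The ranges of both classes overlap, from 1.27 to 56.3 and from 0.563 to 100.6 CPM per kilobase. Across the 27 genes Spearman's rho between the CpG ratio and the level was -0.0067, and over the 5226 genes it was 0.041. These points share their libraries, and are genes rather than replicates.

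**Figure D5:**
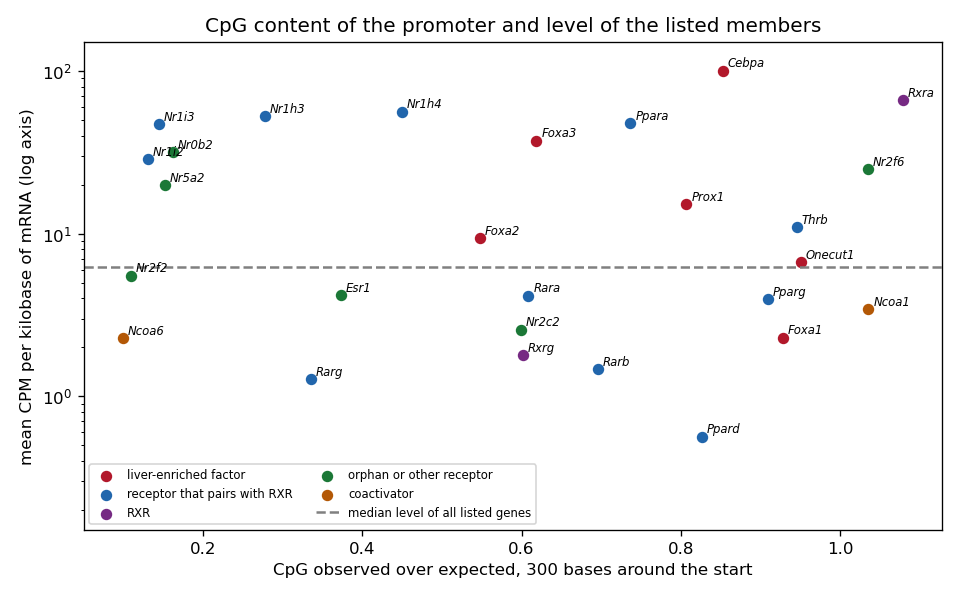
Ratio of observed to expected CpG in the 300 bases around the start against mean CPM per kilobase of mRNA (log axis) for the 27 listed genes with a promoter, coloured by role, with the median level of all listed genes as a dashed line. Nr1i2, Nr1i3, Nr5a2, Nr0b2, Nr1h3 and Nr1h4 combine a ratio under 0.5 with levels from 19.8 to 56.3. Ncoa6, Nr2f2, Rarg and Esr1 combine such a ratio with levels from 1.27 to 5.52. Rxra, Nr2f6 and Ncoa1 lie at ratios above 1.

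The promoters were searched on both strands for 20 short strings, of which 7 were chosen for description after the matches had been seen, so that nothing is read from their shares among the 27 genes. The TATA box TATAAA was found in 6 of the 27 promoters (22.2%), against 7.21% of those of listed genes and 14.2% of all 27025 promoters. Beside Cebpa, Foxa3 and Nr0b2 these are Ncoa6, Nr5a2 and Prox1, where the match is on the opposite strand. The GC box GGGCGG, bound by Sp1-type factors, was found in 16 of the 27 (59.3%), against 64.0% of listed genes and 35.9% of all promoters. Ncoa1 and Nr2f6 had the most matches, 7 each. The stretches before the start of Nr2f6 (chr8:71381953-71382092, minus strand) and Rxra (chr2:27677056-27677200) are shown as examples of the CpG-rich kind, with each GC box, on either strand and overlapping in places, in capitals.
Nr2f6: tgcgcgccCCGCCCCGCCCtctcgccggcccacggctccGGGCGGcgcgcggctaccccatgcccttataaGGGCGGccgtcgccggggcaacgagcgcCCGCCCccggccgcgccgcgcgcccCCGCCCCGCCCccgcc
Rxra: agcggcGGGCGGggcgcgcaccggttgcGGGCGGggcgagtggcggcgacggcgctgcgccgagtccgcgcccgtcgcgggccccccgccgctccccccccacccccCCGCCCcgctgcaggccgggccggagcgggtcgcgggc

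The letters AGGTCA are the half-site that most receptors paired with RXR read as a repeat. They were found in 6 of the 27 promoters (22.2%), against 12.5% of listed genes and 16.0% of all promoters. The 6 are Ncoa6, Nr1h4, Nr5a2, Pparg, Rarg and Thrb, each with a single match. Shown here with the half-site in capitals (TGACCT where it is on the opposite strand) are Nr1h4 (chr10:89506847-89506892, minus strand), Nr5a2 (chr1:136960487-136960532, minus strand), Pparg (chr6:115361096-115361141) and Thrb (chr14:17660756-17660801).
Nr1h4: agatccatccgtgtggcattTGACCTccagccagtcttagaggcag
Nr5a2: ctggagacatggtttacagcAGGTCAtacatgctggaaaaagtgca
Pparg: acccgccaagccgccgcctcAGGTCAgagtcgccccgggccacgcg
Thrb: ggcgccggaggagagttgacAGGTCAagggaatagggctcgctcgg

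The promoters were also searched for motifs of the liver-enriched factors themselves. The ONECUT motif ATTGATT was found in Foxa2, Nr2f2 and Rxrg, 3 of the 27 (11.1%), against 1.68% of listed genes and 2.96% of all promoters. Its match lies 213 bases before the start of Foxa2 (chr2:148047156-148047202, minus strand) and 159 before that of Nr2f2 (chr7:70366879-70366925, minus strand), printed with the motif in capitals.
Foxa2: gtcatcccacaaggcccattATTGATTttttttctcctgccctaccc
Nr2f2: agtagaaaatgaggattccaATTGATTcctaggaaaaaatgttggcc
The forkhead motif TGTTTAC was found in Foxa1 alone of the 27 (2.51% of listed genes and 3.52% of all promoters), while its variants TGTTTGC and TATTTAC were found in 3 (11.1%, against 3.43% of listed genes) and 1 (3.70%, against 1.59%). The C/EBP motif TTGCNNAA was found in Esr1 and Rarb (8.29% and 10.7%) and the HNF1 motif GTTAATNAT in Nr5a2 alone (0.517% and 0.844%). Of the 13 strings not chosen, these forkhead variants included, 7 had no match in the 27 promoters. They are the extended half-sites AAGGTCA and CAAGGTCA, the HNF4 repeats CAAAGTCCA and CAAAGGTCA, a direct repeat of the half-site spaced by 1 base, the cyclic AMP response element TGACGTCA and the ETS motif CCGGAAG, which 0.0765% to 18.2% of listed genes hold. The CCAAT box was found in 12 of the 27 (44.4%, against 39.9% of listed genes), the E-box CACGTG in 4 (14.8% against 10.1%), the NRF1 motif in 2 (7.41% against 2.30%) and the ONECUT variant ATCAATA in 1 (3.70% against 1.26%). A match, or its absence, describes the letters of this window only.

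Among the markers of liver cells, 3 of 6 hepatocyte genes are listed, led by Apoa1 (7619 CPM per kilobase) and Cyp2e1 (4180), and Alb, Ttr and Cps1 are not listed. Of the 7 symbols of Kupffer cell markers 5 are listed, led by Clec4f (74.8) and Vsig4 (36.8). Among the 7, Emr1 and Adgre1 name the same gene, which is listed as Emr1. Of the sinusoidal endothelial markers 4 of 5 are listed, led by Clec4g (76.9) and Stab2 (16.4), and of the stellate cell markers 5 of 6, led by Dcn (98.3) and Colec11 (24.7). Above the median of all listed genes per kilobase lay 4 of the 5 listed Kupffer cell markers, all 4 endothelial and 3 of the 5 stellate cell markers. The stellate cell markers Lrat (5.74) and Des (1.67) lay below it. Spp1 (16.5) is the listed one of 5 cholangiocyte markers. The listed markers of Kupffer, endothelial, stellate cells and cholangiocytes summed to 291.6, 384.5, 384.1 and 25.1 CPM, against 17146 CPM for the 3 hepatocyte genes, so that the tissue held RNA of several cell types. Which cells carry each regulator was not tested.

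Among further nuclear receptors, Nr3c1, the glucocorticoid receptor, had 25.9 CPM per kilobase, between Nr2f6 and Nr1i2. Of 19 corepressors and other coregulators, 13 are listed with a median of 3.84 CPM per kilobase, and 5 lay above the median of all listed genes. Ncoa4, a ferritin receptor of autophagy also named as a coactivator, had 98.2 and Kat2b, a histone acetyltransferase, 43.9 CPM per kilobase. Both are above all 5 coactivators of the group. Of 23 further liver-enriched factors, 11 are listed with a median of 6.48 CPM per kilobase, led by Klf15 (71.2) and Mlxipl (19.0).

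Each of the textbook target genes of these receptors given here with a level lay above the median of all listed genes per kilobase. Of the targets looked for, 2 of 3 are listed for Nr1i2 and Nr1i3, and 2 of 4 for Nr1h3. For the thyroid hormone receptors 2 of 2 are listed, and for Nr5a2 1 of 2. A target that is not listed has no level here. For Nr1i2 and Nr1i3, the cytochrome P450 gene Cyp3a11 had 4524 and Cyp2b10 67.1 CPM per kilobase. The lipogenic gene Thrsp and Dio1, a deiodinase that is itself a selenoprotein, are targets of thyroid hormone receptors and had 1276 and 73.7. The sterol transporters Abcg5 and Abcg8, targets of Nr1h3, had 49.9 and 25.7 CPM per kilobase, against 52.5 for Nr1h3. Cyp7a1, a target of Nr5a2 and the rate-limiting enzyme of bile acid synthesis, had 30.9. The 3 FXR targets looked for, Abcb11, Slc51a and Slc51b, are not listed. Whether the receptors set the levels of these target genes was not tested.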

How the data were processed

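Liver RNA of 2 mice per diet was depleted of ribosomal RNA and sequenced by the authors for 50 cycles. Using Bowtie, the authors then placed reads on RefSeq mRNAs of mm9, keeping the longest isoform of a gene, unique alignments and up to 2 mismatches, and required more than 1 CPM in at least 3 samples. No source used here gives tool versions. The deposited mean log2 CPM over the 4 libraries, made by the authors with edgeR, and the mRNA length were used as deposited. The deposited table also holds the authors' own comparison of the diets (log2 fold changes, p-values and FDR). Those columns hold the findings of the study and were not used. Rows run in the order of the authors' p-value and stop at 7000 genes, so a gene that is not listed is not shown to be absent from liver, and the listed genes are no random sample of those expressed.

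The planned test of the diets needed counts for each mouse and was not run, and the planned comparison of protein sequences was not run either, because no protein table was used here. Levels were converted as 2 to the power of log2 CPM and divided by length in kilobases. Percentiles are among the 7000 listed genes. No member that is not listed was found under a RefSeq synonym. Levels, percentiles and motif searches were tested on simulated data. All listed members are named, and of the other lists the 2 genes with the highest level per kilobase, except that some genes are not reported here. Members and lists were chosen with earlier results of these data known. Roles and gene pairs were written after the levels had been seen. Of 20 strings searched in the promoters, the 7 described and the sequences printed were chosen after their matches had been seen. Transcripts come from GENCODE vM1 on NCBIM37, promoters from RefSeq on GRCm38.p6, whose coordinates are not interchangeable. Python 3.11.15, numpy 2.4.6, pandas 2.3.3 and matplotlib 3.10.9 were used.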

Additional observations from a re-analysis of the deposited data

How the results depend on the processing

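The median level of the 35 listed genes was 2.50 on the log2 scale of CPM per kilobase. It was 4.54 for CPM not divided by length, 2.51 with the length reduced by a read of 50 bases and 3.23 for the 29 genes of at least 5 CPM. The count of genes above the median of all listed genes was 17, and 20, 17 and 15 under these settings. For the 15 of 29 genes of at least 5 CPM, that median was taken over the listed genes of at least 5 CPM. The filter removed no gene that lay above the median of all listed genes, so the lower count comes from the changed median. With the length of the nearest GENCODE vM1 transcript, a setting chosen after seeing the data, the count was 17. Without division by length, 5 genes changed side: Ncoa1, Ncoa3, Nr2c2 and Nr2f2 lay above the median and Onecut1 below it. The median difference within a family, highest less lowest, was 1.71 on the log2 scale and 1.92 without division by length. Of the 11 families only Nr1i turned, Nr1i3 less Nr1i2 being 0.72 per kilobase and -0.12 in CPM. Settings that leave out a mouse, another normalization and another test could not be run on a mean over libraries. The deposited values are a single mean, so depth, counting error and spread between mice are unknown. No paired analysis was possible because no column holds a single mouse. With no spread known, values within 0.005 on the log2 scale were counted as equal.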

Other observations

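For 2 listed genes no annotated coding transcript lay within 10% of the deposited length. The mRNA of Ppara is listed with 7445 bases, and its nearest GENCODE vM1 transcript has 3413 bases. With the shorter length its level would be 104.6 instead of 47.9 CPM per kilobase, above Cebpa at 100.6. For Onecut2 the lengths are 13391 and 15906 bases, and the same CPM divided by them is 9.89 and 8.33 per kilobase. The CPM was counted on the listed mRNA, so reads from further bases of the longer transcript are missing from the second value. Which transcript ends the reads came from was not tested.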
